A study of Mus musculus with 6 samples.

Results

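The genes described here are known in the annotation of the counts only by a clone or model identifier. Symbols that end in Rik were given to full-length mouse cDNA clones sequenced at RIKEN, and symbols made of Gm and digits were given to predicted gene models. The members were chosen by their names and selected on their measured level: a count of 5 CPM or more (per 1e+06 counts of the library's total) in 2 or more of the 6 libraries. Of 21240 genes counted, 1379 had such a name and 232 of these met the level, 205 Rik genes and 27 Gm genes. Each of the 232 was also among the 11080 genes tested, which had 2 CPM or more in 2 or more libraries, and 318 genes with such a name were tested in all.

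RNA was measured by sequencing of stranded total RNA libraries from NMuMG cells, an epithelial line from normal mouse mammary gland, in 3 groups of 2 biological replicates. The cells were first kept for 6 h in serum-free medium that also lacked insulin. They then received vehicle for 2 h, TGFβ1 (5 ng/ml) for 2 h or TGFβ1 (5 ng/ml) for 12 h. Vehicle was collected at 2 h alone. At 12 h, against vehicle or 2 h, the effects of TGFβ1 and of a longer time without serum and insulin cannot be told apart. Total counts were 16251758 and 14705886 in vehicle, 20578661 and 19904400 at 2 h, and 23786993 and 20142492 at 12 h, in the order of replicates 1 and 2, which is the order of all values below.

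TGFβ1 binds a pair of receptor kinases, and these activate SMAD transcription factors that act on chromatin together with partners such as AP-1. In NMuMG cells, a common model of epithelial-mesenchymal transition, the ligand leads cells to lose their epithelial shape and gain mesenchymal features. Rik and Gm symbols cover unlike things: protein-coding genes whose product had no assigned function when the symbol was given, long noncoding RNAs (lncRNAs) and pseudogenes, which are copies of coding genes.

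The labels of the cells and of the treatment were checked first on genes outside the members. TMM-normalized CPM (scaled by edgeR's trimmed mean of M-values, the unit of every level below unless raw CPM is named) of 6 epithelial markers summed to 3934 and 3295 in vehicle, 4778 and 4685 at 2 h, and 9900 and 9877 at 12 h, with Krt18 the most abundant. Cdh1 was at 391.7 ± 41.0 (SD, n = 2) in vehicle, while Epcam was at 0.181 and Cldn3 had 0 counts in 5 of the 6 libraries, so 2 of the 6 epithelial markers were absent or nearly so in this line. The 6 mesenchymal markers summed to 2084 and 2223, 2718 and 3402, and 4729 and 4670, with Vim the most abundant and Twist1 at 0 in 5 of the 6 libraries. The 3 leukocyte markers summed to at most 0.318 and the 3 adipocyte markers to at most 0.202 in any library, with Ptprc and Fabp4 the most abundant and no gene at 0 throughout. The 3 endothelial markers, mainly Cdh5, summed to 0.118 and 0.191 in vehicle, 0.303 and 0.353 at 2 h, and 1.74 and 1.95 at 12 h, and their part in the results was not tested. Of the mesenchymal markers, Fn1, Zeb1 and Zeb2 rose at 12 h, and of the epithelial markers Krt8, Krt18 and Krt7 rose.

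Textbook TGFβ targets moved with the labels. Against vehicle, the log2 fold changes at 2 h and 12 h were 2.07 and 2.65 for Smad7, 2.09 and 2.21 for Skil, and 3.51 and 3.98 for Junb, all 3 called at both times. Id3, an inhibitor of helix-loop-helix factors, was lower at -1.06 and -2.05, and Id1 was at 0.087, not called, and then -1.84. A gene was called where the adjusted p of edgeR's quasi-likelihood test was under 0.05, with Benjamini-Hochberg adjustment over the 11080 genes tested, and the absolute log2 fold change was above 1. Since these are bulk libraries, fewer cells with a transcript and less of it per cell cannot be told apart in any of the values.

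By gene type the 232 members were mixed. Matched by gene identifier to the RefSeq annotation (GRCm38.p6), 154 were protein-coding, 54 were lncRNAs, 22 were pseudogenes and 2 were not matched. Of the 230 matched members, 40 carried another symbol there and 190 the same one. Mean level over the 6 libraries ranged from 2.91 to 557.5 CPM, with a median of 15.8. On a scale that allows genes to be compared, CPM per kb of annotated exon, the median level was 8.80 over 150 coding members with a length, 3.02 over 40 lncRNAs and 8.61 over 18 pseudogenes, and over all tested genes of each type it was 10.7, 2.40 and 4.18. Those lengths came from the GENCODE annotation of the mm9 build (NCBIM37), which is not the annotation used for counting.

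The members together took a small share of all counts. The share was 0.824% and 0.828% in vehicle, 0.923% and 0.927% at 2 h, and 0.926% and 0.941% at 12 h. The vehicle libraries were below the others, and the 4 treated libraries lay close together. A single gene, 2310007B03Rik, held 0.728% and 0.673% of the member counts in vehicle, 5.90% and 6.16% at 2 h, and 10.4% and 11.3% at 12 h. Without it the member share was 0.818% and 0.823%, 0.868% and 0.870%, and 0.830% and 0.835%.

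How a member met the level bears on what its counts can show. Of the 232, 180 had at least 5 CPM in all 6 libraries and 52 were under it in at least 1. Of these 52, 16 members passed through the 2 libraries of 1 group alone, 10 through vehicle, 6 through 12 h and 0 through 2 h, so these had to differ between groups. Of the 6 that passed through 12 h, each was called higher at 12 h against vehicle, and of the 10 that passed through vehicle, 5 were called lower at 12 h and 3 at 2 h. Just inside the level, the second-highest raw CPM was 5.16 for 4930503E24Rik, 5.17 for Gm5113 and 5.26 for 2010204K13Rik. Just outside, it was 4.90 for Gm13498, 4.90 for Gm16861 and 4.82 for 4931428F04Rik.

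Of the 232 members 190 were called in no comparison and 42 in at least 1 (18.1%, beside 23.5% of all genes tested). At 2 h against vehicle 9 members were called higher (3.88%, beside 4.23% of all genes tested) and 4 lower (1.72%, beside 2.01%). At 12 h against vehicle 18 were called higher (7.76%, beside 8.03%) and 19 lower (8.19%, beside 11.6%). At 12 h against 2 h 9 were called higher (3.88%, beside 4.50%) and 13 lower (5.60%, beside 9.87%). These shares were near or below those of all genes, and no count is a result about the members as a class. The comparisons share libraries, 2 h and 12 h having the same vehicle. Among the 180 members above the level in all 6 libraries, 8 were called higher at 2 h (4.44%, beside 3.67% of the 9110 genes tested that reached the level in all 6). None was called lower by edgeR, DESeq2 or limma-voom (beside 1.15% of those genes by edgeR). The 4 members called lower at 2 h were thus all under the level in at least 1 library. Of the 180, 29 had a negative log2 fold change with an unadjusted p under 0.05 by each tool. This number was not counted over all genes, so it is no result about the members. In the same set 11 were called higher (6.11%, beside 6.74%) and 7 lower (3.89%, beside 6.40%) at 12 h, and 2 higher (1.11%, beside 3.01%) and 6 lower (3.33%, beside 5.24%) at 12 h against 2 h. The 2 h count turned on single libraries: 13 members were called in all, 23 (11 higher, 12 lower) without 2 h replicate 1 and 9 (8 higher, 1 lower) without vehicle replicate 1. Over all genes tested the count moved in the same directions, from 692 to 909 (535 higher, 374 lower) and to 492 (379 higher, 113 lower). At 12 h against 2 h the 9 called higher and 13 lower became 5 and 12 without 12 h replicate 2 (all genes, from 499 and 1094 to 360 and 839), and 13 and 16 without 2 h replicate 1 (all genes, 543 and 1148). With total counts in place of TMM factors, 8 members were called higher and 8 lower at 2 h, beside 402 and 303 of all genes tested.

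The middle of the members lay slightly under 0 at both times. The median log2 fold change of members was -0.14 at 2 h (all genes tested, -0.0091), -0.056 at 12 h (all, 0.015) and 0.045 at 12 h against 2 h (all, 0.0092). With 1 library left out the 12 h median reached -0.11 (without vehicle replicate 2), and that of 12 h against 2 h 0.027 (without 2 h replicate 2). For a member level of 2 CPM these medians were -0.10 and 0.0056. Among members above 5 CPM in all 6 libraries they were -0.021 and 0.061. At 2 h 154 members (66.4%, beside 51.1% of all genes) had a negative log2 fold change, and at 12 h 130 (56.0%, beside 48.8%). Scaling by total counts moved the median of all genes to -0.12 at 2 h and -0.11 at 12 h, and that of members to -0.25 and -0.18. By type, the median at 2 h was -0.12 for coding members, -0.30 for lncRNAs and -0.011 for pseudogenes, while all 150 lncRNAs tested had -0.28. At 12 h the medians were -0.021, -0.17 and -0.049, with -0.22 for all lncRNAs tested. Between replicates the median absolute log2 difference of members came to 0.168 (vehicle), 0.231 (2 h) and 0.147 (12 h; all genes, 0.153, 0.220 and 0.134).

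**Figure D1:**
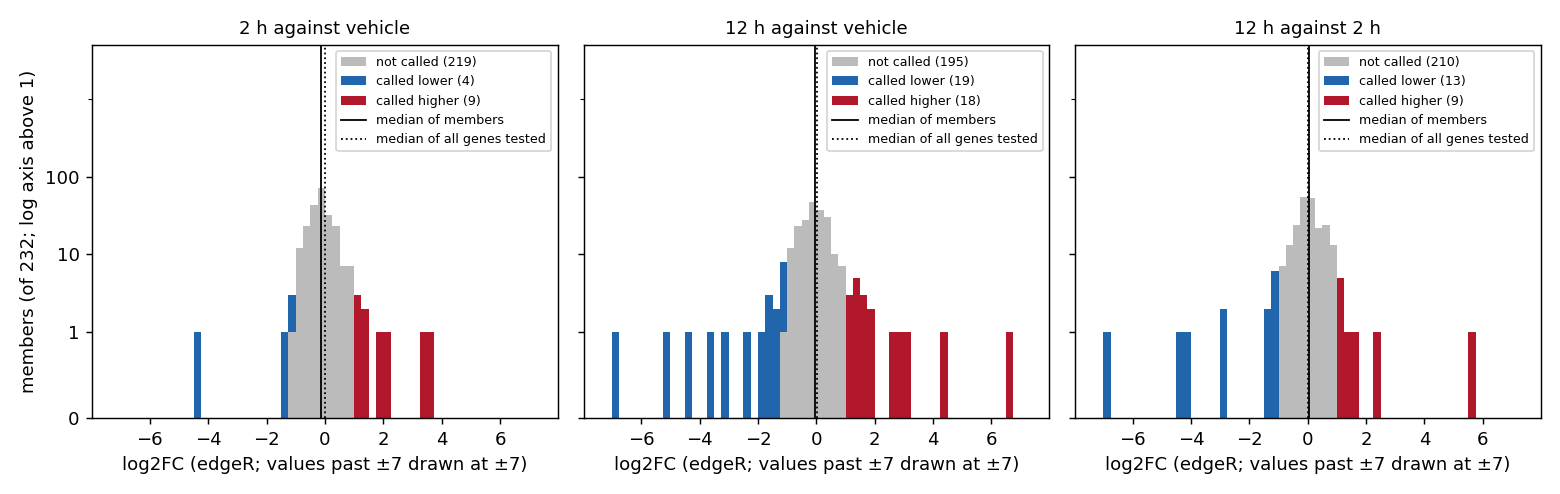
Number of members (vertical axis, log scale above 1) in bins of the edgeR log2 fold change (horizontal axis) for the 3 comparisons, with called members in colour, the median of members as a solid line and that of all genes tested as a dotted line; values past ±7, those of 8430408G22Rik, are drawn at ±7. Most of the 232 members lie between -1 and 1 in each comparison, and the member median lies left of that of all genes at 2 h and 12 h against vehicle.

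After 2 h of TGFβ1, 8 of the 9 members that rose were protein-coding (5.19% of coding members, beside 4.30% of all coding genes tested) and 1 was a lncRNA (1.85%, beside 2.0% of all lncRNAs tested). 2310007B03Rik (gene ID 71874, chr1:95047926-95057525, minus strand, NCBIM37), now named Mab21l4, was at 57.3 and 52.1 CPM in vehicle, 566.0 and 572.9 at 2 h, and 1001 and 1096 at 12 h. The 3 groups did not overlap, and each later group was higher than the one before. In the fit, its log2 fold change was 3.38 (SE 0.116, adjusted p = 0.000109) at 2 h and 4.26 (SE 0.121, adjusted p = 2.07e-05) at 12 h. From 2 h to 12 h it was 0.88 (adjusted p = 0.00162), below the threshold of 1. It had the highest mean of the members, 557.5 CPM, and 235.4 CPM per kb of exon, also the highest of the 8 most abundant members on that scale.

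D630003M21Rik (gene ID 228846, chr2:158008269-158054958, minus strand), a coding gene, had the largest increase of the members at 2 h and then came down in part. Its level was 34.1 and 29.99 CPM in vehicle, 375.8 and 368.4 at 2 h, and 223.0 and 254.6 at 12 h. Vehicle was lowest, 2 h highest, and no 2 groups overlapped. By edgeR's test its log2 fold change was 3.54 (SE 0.128, adjusted p = 0.000109) at 2 h and 2.90 (SE 0.125, adjusted p = 3.68e-05) at 12 h. Between the times it was -0.64 (adjusted p = 0.00685), not called.

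2010111I01Rik (gene ID 72061, chr13:63066253-63427404, plus strand), now Aopep, which encodes the zinc metalloprotease aminopeptidase O, was the only member that passed both thresholds in opposite directions from vehicle to 2 h and from 2 h to 12 h. It was at 89.2 and 85.7 CPM in vehicle, 365.4 and 367.1 at 2 h, and 153.2 and 172.6 at 12 h. The 2 h libraries were highest and the 12 h libraries stayed above vehicle. On the log2 scale the change was 2.07 (SE 0.106, adjusted p = 0.000202) at 2 h, 0.90 (adjusted p = 0.000776), not called, at 12 h, and -1.17 (SE 0.103, adjusted p = 0.000583) between the times.

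5730559C18Rik (gene ID 67313, chr1:138110108-138130841, minus strand), now Inava, an activator of innate immune signalling in other cells, was at 42.9 and 56.7 CPM in vehicle, 171.0 and 184.3 at 2 h, and 138.6 and 153.8 at 12 h. Both treated groups lay above vehicle. The test gave a log2 fold change of 1.84 (SE 0.155, adjusted p = 0.000924) at 2 h and 1.56 (SE 0.154, adjusted p = 0.000417) at 12 h, with -0.28 between the times (adjusted p = 0.188).

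1700017B05Rik and C130074G19Rik, 2 abundant coding members, were called at 2 h alone. 1700017B05Rik (chr9:57100129-57110406, minus strand) was at 128.8 and 114.3 CPM, 348.4 and 249.7, and 231.4 and 241.5, with every treated library above vehicle and the 2 h replicates far apart. Its log2 fold change was 1.30 (adjusted p = 0.00435) at 2 h and 0.96 (adjusted p = 0.00447) at 12 h, just under the threshold. C130074G19Rik (chr1:186695805-186707097, minus strand) was at 215.2 and 202.0, 516.8 and 409.4, and 274.9 and 307.2 CPM, highest at 2 h with no overlap. In the fit, its log2 fold change was 1.15 (adjusted p = 0.00336) at 2 h, 0.95 without 2 h replicate 1 and so not called, and 0.48 (adjusted p = 0.0310) at 12 h. Neither member's change from 2 h to 12 h was called.

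The other members higher at 2 h were higher at 12 h as well. 2700081O15Rik (gene ID 108899, chr19:7492115-7500394, plus strand), a coding gene, was at 21.0 and 18.2 CPM in vehicle, 42.6 and 39.8 at 2 h, and 70.4 and 75.2 at 12 h, without overlap. By edgeR's test its log2 fold change was 1.07 (adjusted p = 0.00252) at 2 h, 0.97 without vehicle replicate 2 and 0.96 with total counts, and 1.89 (SE 0.122, adjusted p = 9.74e-05) at 12 h. The lncRNA 4931406H21Rik was at 6.82 and 8.66, 15.3 and 19.9, and 15.5 and 16.4 CPM, above vehicle in all 4 treated libraries. Its calls were near the thresholds, with log2 fold changes of 1.18 (adjusted p = 0.0114) at 2 h and 1.04 (adjusted p = 0.00644) at 12 h. The first was lost without vehicle replicate 1 (adjusted p = 0.0781) and without 2 h replicate 2 (0.98). The second was lost without vehicle replicate 1 (0.88), without 12 h replicate 2 (0.99) and with total counts (0.91).

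4930486L24Rik (gene ID 214639, chr13:60943982-60965777, minus strand), a coding gene, was the only member called higher in all 3 comparisons. It was at 3.59 and 3.76 CPM in vehicle, 9.81 and 10.5 at 2 h, and 20.6 and 24.2 at 12 h, each group above the one before. The gene met the 5 CPM level in the treated libraries alone, so a lower vehicle level was built into the choice. On the log2 scale the change was 1.47 (SE 0.173, adjusted p = 0.00297), then 2.61 (SE 0.173, adjusted p = 0.000107) against vehicle, and 1.14 (adjusted p = 0.00272) between the times. Ctla2b, which starts 33031 bases away on the same strand and is not a member, was at 5.88 and 4.20, 24.8 and 25.8, and 45.8 and 45.3 CPM. The test gave a log2 fold change of 2.32 at 2 h (adjusted p = 0.000687) and 3.17 at 12 h (adjusted p = 6.19e-05).

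Of the 4 members that fell at 2 h, 8430408G22Rik fell furthest and was no longer detected at 12 h. This gene (gene ID 213393, chr6:116600702-116602865, plus strand) is now Depp1, a FOXO target linked to autophagy. It had 454 and 164 counts in vehicle, 22 and 16 at 2 h, and 0 and 0 at 12 h, or 26.7, 10.4, 1.11, 0.807, 0 and 0 CPM. It met the 5 CPM level in vehicle alone. The vehicle replicates differed widely, yet both lay above every treated library. The log2 fold change at 2 h was -4.27 (SE 0.555, adjusted p = 0.00692). At 12 h, with a floor of 3 counts per library (0.142 CPM), which covers counting error only, the level was at least 130.6-fold lower than in vehicle (adjusted p = 0.000670) and at least 6.74-fold lower than at 2 h (adjusted p = 0.0180). Without vehicle replicate 1 the log2 fold change at 2 h was -3.44, and the level at 12 h was at least 73.39-fold lower than in vehicle. The call against 2 h was lost without 12 h replicate 1 (adjusted p = 0.0818) and without 12 h replicate 2 (adjusted p = 0.0717).

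The remaining members that fell at 2 h were lower at 12 h too, and their 2 h calls depended on vehicle libraries. The lncRNA 4933431E20Rik (chr3:107691768-107699131, minus strand) was at 18.1 and 15.03 CPM in vehicle, 7.18 and 5.29 at 2 h, and 4.44 and 5.34 at 12 h. Its log2 fold change was -1.41 (adjusted p = 0.00865; 0.0617 without vehicle replicate 1) at 2 h and -1.76 (adjusted p = 0.00120) at 12 h, with both times below vehicle and overlapping each other. A830010M20Rik, which was not matched in RefSeq, was at 8.18 and 8.60, 3.89 and 3.58, and 3.44 and 3.49 CPM. At 2 h the log2 fold change was -1.17 (adjusted p = 0.0102), with an adjusted p of 0.0612 without vehicle replicate 1 and 0.0711 without vehicle replicate 2, and at 12 h it was -1.27. The lncRNA 9230114K14Rik was at 7.0 and 7.51, 3.39 and 3.43, and 2.83 and 3.28 CPM. For this gene the log2 fold change at 2 h was -1.09 (adjusted p = 0.0170), with an adjusted p of 0.0817 and 0.101 without vehicle replicates 1 and 2 and 0.0532 without 2 h replicate 2, and at 12 h it was -1.25. Both of these members passed the level through vehicle alone, so a lower treated level was built into the choice.

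**Figure D2:**
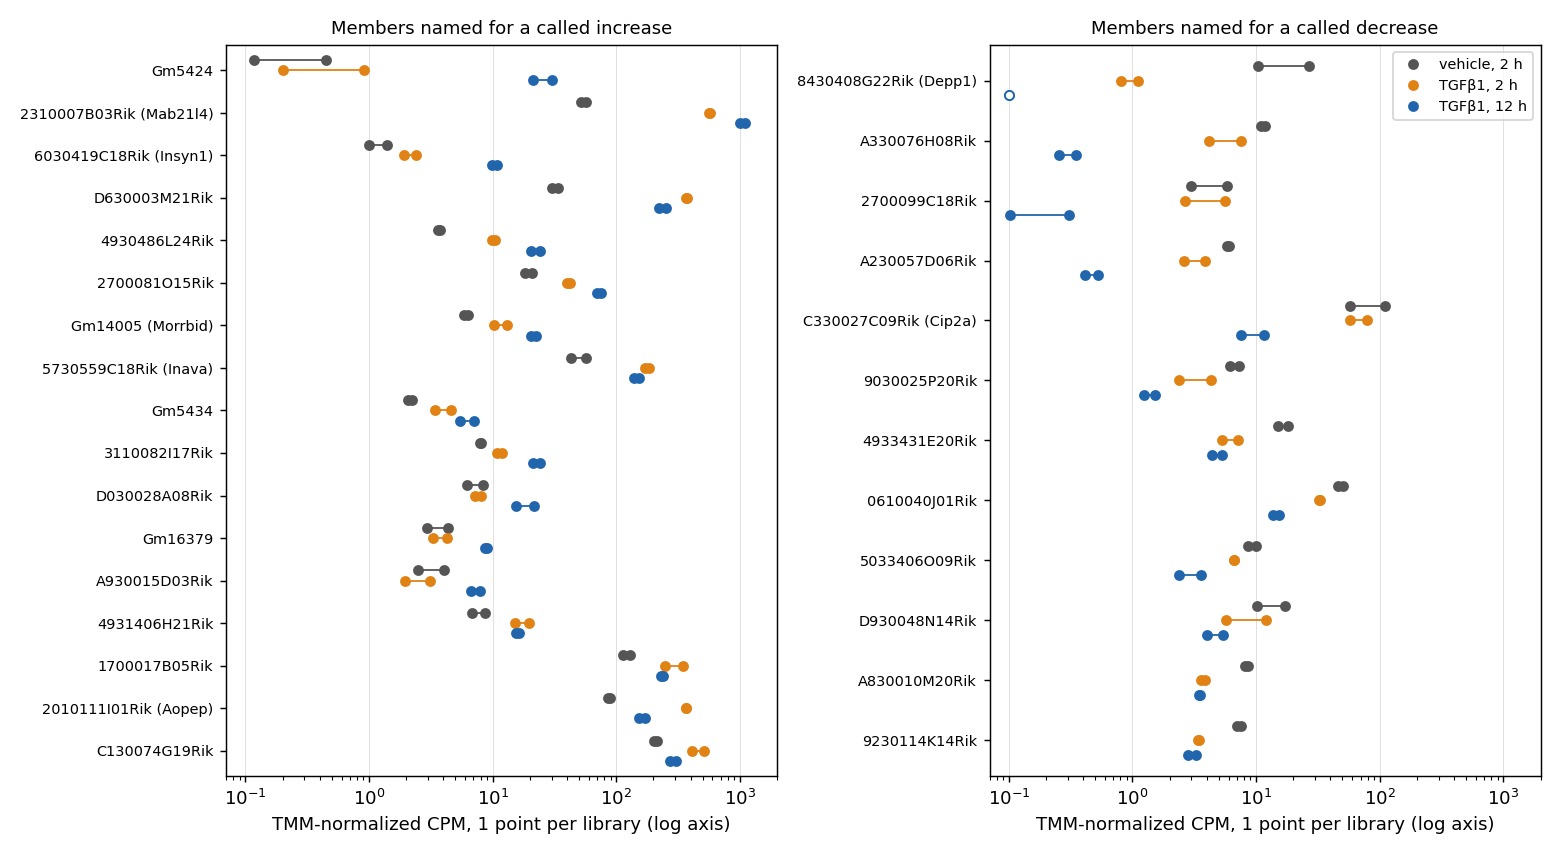
TMM-normalized CPM (log axis) in each library of the members named for a called increase (left) or decrease (right), 1 point per library, in vehicle, 2 h and 12 h of TGFβ1, with libraries at 0 counts drawn as open markers at the lower edge. The 2 libraries of a group lie close together for most of these members, and 8430408G22Rik has no counts at 12 h.

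At 12 h the 18 members that rose were 9 coding genes (5.84% of coding members, beside 8.05% of all coding genes tested), 5 lncRNAs (9.26%, beside 7.33% of all lncRNAs tested) and 4 pseudogenes. Beside those described above, the coding members with the largest increase were 6030419C18Rik and 3110082I17Rik. 6030419C18Rik (gene ID 319477), now Insyn1, named for a part in inhibitory synapses, was at 1.00 and 1.40 CPM in vehicle, 1.92 and 2.42 at 2 h, and 9.88 and 10.9 at 12 h. The 12 h libraries stood apart from the other 4, and the gene met the 5 CPM level in them alone. In the fit, its log2 fold change was 0.86 (adjusted p = 0.0955) at 2 h, 3.11 (SE 0.268, adjusted p = 0.000255) at 12 h and 2.26 (adjusted p = 0.00115) between the times. 3110082I17Rik (chr5:139835693-139936456, minus strand) was at 7.94 and 8.02, 12.0 and 10.8, and 21.3 and 24.1 CPM, each group above the one before. The log2 fold change at 12 h was 1.51 (SE 0.155, adjusted p = 0.000491).

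Among lncRNAs that rose at 12 h, Gm14005 changed most. This transcript (gene ID 100043424, chr2:128021729-128255085, minus strand) is now Morrbid, known for control of the nearby cell death gene Bcl2l11 in myeloid cells. It was at 6.35 and 5.92 CPM in vehicle, 13.2 and 10.2 at 2 h, and 22.5 and 20.5 at 12 h, without overlap. By edgeR's test its log2 fold change was 0.93 (adjusted p = 0.0210), not called, at 2 h and 1.81 (SE 0.186, adjusted p = 0.000491) at 12 h.

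D030028A08Rik and A930015D03Rik, also lncRNAs, were higher at 12 h alone. D030028A08Rik (chr11:96777584-96826374, plus strand) was at 6.24 and 8.34, 7.18 and 8.12, and 15.6 and 21.5 CPM, with vehicle and 2 h overlapping and 12 h above both. On the log2 scale the change was 1.34 (adjusted p = 0.00418) against vehicle and 1.27 (adjusted p = 0.00710) against 2 h, the latter with an adjusted p of 0.0567 without 12 h replicate 2. A930015D03Rik (chr17:36131398-36175380, plus strand) was at 4.06 and 2.48, 3.13 and 1.97, and 6.66 and 7.85 CPM, and met the level at 12 h alone. The test gave a log2 fold change of 1.14 (adjusted p = 0.0302) against vehicle and 1.51 (adjusted p = 0.0145) against 2 h. Against vehicle the adjusted p was 0.147 without vehicle replicate 2, 0.0961 without 12 h replicate 1 and 0.158 without 12 h replicate 2. Against 2 h it was 0.0698 and 0.0976 without the respective 12 h replicates.

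The 19 members that fell at 12 h were 8 coding genes (5.19% of coding members, beside 11.6% of all coding genes tested), 8 lncRNAs (14.8%, beside 16.0% of all lncRNAs tested), 2 pseudogenes and 1 unmatched gene. A pair of lncRNAs from 1 stretch of chromosome 7 nearly disappeared. A330076H08Rik (gene ID 320026, chr7:69075799-69127242, minus strand) was at 10.9 and 11.8 CPM in vehicle, 7.58 and 4.13 at 2 h, and 0.348 and 0.257 at 12 h. The 12 h libraries were below all others, and the 2 h libraries lay between. The gene met the 5 CPM level in both vehicle libraries and 2 h replicate 1 alone, so a lower 12 h level was built into the choice. Its log2 fold change was -0.95 (adjusted p = 0.0866) at 2 h, -5.19 (SE 0.416, adjusted p = 0.000202) at 12 h and -4.23 (SE 0.419, adjusted p = 0.000869) between the times. A gene model overlaps it on the same strand, and which of them the reads came from was not tested.

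A230057D06Rik (gene ID 319893), the other lncRNA of that stretch, was at 6.06 and 5.79 CPM in vehicle, 3.84 and 2.62 at 2 h, and 0.522 and 0.411 at 12 h. Its libraries lay in the same order, vehicle, 2 h and 12 h, without overlap, but it met the 5 CPM level in vehicle alone, so a highest level in vehicle was built into the choice. In the fit, its log2 fold change was -0.87 (adjusted p = 0.0792) at 2 h, -3.64 (SE 0.330, adjusted p = 0.000300) at 12 h and -2.77 (SE 0.334, adjusted p = 0.00165) between the times. In RefSeq the pair is separated by 10 genes, 8 of them microRNA genes and 2 pseudogenes, with 0 coding genes between.

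C330027C09Rik (gene ID 224171, chr16:48994298-49019822, plus strand), now Cip2a, an inhibitor of the phosphatase PP2A that is abundant in dividing cells, was lower at 12 h alone. It was at 57.7 and 109.6 CPM in vehicle, 57.8 and 79.6 at 2 h, and 11.5 and 7.54 at 12 h. Vehicle and 2 h overlapped, and both 12 h libraries were far below. By edgeR's test its log2 fold change was -0.28 (adjusted p = 0.620) at 2 h, -3.12 (SE 0.372, adjusted p = 0.000881) at 12 h and -2.84 (SE 0.368, adjusted p = 0.00211) between the times. Dzip3, whose transcript starts 20 bases away in the opposite direction and which is not a member, had log2 fold changes of -0.51 and -0.28 and was not called.

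2700099C18Rik (gene ID 77022), a transcribed pseudogene, had 51 and 91 counts in vehicle, 53 and 111 at 2 h, and 7 and 2 at 12 h. In both earlier groups replicate 2 was higher, and the 12 h libraries were below both groups. This pseudogene met the 5 CPM level in replicate 2 of vehicle and of 2 h alone, so a lower 12 h level was built into the choice. On the log2 scale the change was -0.084 at 2 h (adjusted p = 0.928), -4.34 (SE 0.674, adjusted p = 0.00266) at 12 h and -4.26 (SE 0.671, adjusted p = 0.00424) between the times. Without 12 h replicate 1 these became -5.34 and -5.25, and without 2 h replicate 2 the change between the times became -3.63.

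0610040J01Rik and 9030025P20Rik, both coding, fell in steps. 0610040J01Rik (chr5:64203734-64290858, plus strand) was at 50.3 and 45.8 CPM, 32.7 and 32.4, and 13.7 and 15.3, without overlap. The test gave a log2 fold change of -0.56 (adjusted p = 0.0251), not called, at 2 h, -1.73 (SE 0.124, adjusted p = 0.000139) at 12 h and -1.17 (adjusted p = 0.00102) between the times. 9030025P20Rik (chr17:15115829-15127768, plus strand) was at 7.29 and 6.11, 4.30 and 2.37, and 1.52 and 1.23 CPM, also without overlap, and met the level in vehicle alone. Its log2 fold change was -1.01 (adjusted p = 0.0902) at 2 h and -2.27 (adjusted p = 0.00256) at 12 h. In a fit with the replicate number as a block, the change at 2 h was called. Between the times the log2 fold change was -1.27 (adjusted p = 0.0333), a call lost under 7 alternatives. Of these, 5 left out vehicle replicate 1 or 2, 2 h replicate 1, or 12 h replicate 1 or 2.

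The lncRNAs 5033406O09Rik and D930048N14Rik were lower at 12 h as well. The former met the 5 CPM level in the vehicle and 2 h libraries alone, so a lower 12 h level was built into the choice. 5033406O09Rik was at 8.53 and 9.93, 6.57 and 6.65, and 2.39 and 3.59 CPM, without overlap, with a log2 fold change of -1.63 (adjusted p = 0.00247) at 12 h. Between the times it was -1.15 (adjusted p = 0.0133), and -0.89 (adjusted p = 0.0801) without 12 h replicate 1. D930048N14Rik (chr11:51464456-51471183, plus strand) was at 10.2 and 17.1, 5.71 and 12.1, and 4.00 and 5.44 CPM, with vehicle and 2 h overlapping and 12 h below both. Its log2 fold change at 12 h was -1.54 (adjusted p = 0.0248). This call was lost without vehicle replicate 2 (adjusted p = 0.124), without 12 h replicate 1 (0.148) and without 12 h replicate 2 (0.0838).

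The direct comparison of 12 h with 2 h tests which members moved between the times. The 9 members called higher were 4 coding genes (2.60% of coding members, beside 4.53% of all coding genes tested), 3 lncRNAs (5.56%, beside 4.0% of all lncRNAs) and 2 pseudogenes (9.09%, beside 4.62% of all pseudogenes). The 13 called lower were 7 coding genes (4.55%, beside 9.94%), 4 lncRNAs (7.41%, beside 8.0%) and 2 pseudogenes (9.09%, beside 9.23%). Gm14137 and 2410002F23Rik, coding genes chosen for mention after their values were seen, were called in this comparison alone, with log2 fold changes of 1.20 and 1.18. The other members called in it were called at 12 h against vehicle too, except 2010111I01Rik. Further members called at 12 h against vehicle, picked out in the same way, include 4931406P16Rik (now Garre1, an effector of the GTPase Rac) at 1.30, A430105I19Rik at 1.42, B430319G15Rik (which met the 5 CPM level at 12 h alone) at 1.40 and E330009J07Rik at -1.29.

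Pseudogene members need care, since a read that fits the parent gene equally well is not counted when only unique alignments are kept, and a read from 1 copy can be placed on the other. Of the 22 pseudogene members 4 were called higher (18.2%, beside 9.23% of all 65 pseudogenes tested) and 2 lower (9.09%, beside 10.8%) at 12 h, counts too small to set the members apart. Gm5424 (gene ID 432466, chr10:61533871-61535109, plus strand) had 2 and 7 counts in vehicle, 4 and 18 at 2 h, and 489 and 592 at 12 h, or 0.118, 0.446, 0.202, 0.907, 21.3 and 30.4 CPM. The 12 h libraries, the only ones in which it met the 5 CPM level, stood far above the other 4, which overlapped. In the fit, its log2 fold change was 0.99 (adjusted p = 0.489) at 2 h, 6.51 (SE 0.634, adjusted p = 0.000389) at 12 h and 5.52 (SE 0.563, adjusted p = 0.000917) between the times. This was the largest log2 fold change among members called higher at 12 h, though its size rests on few counts in the other groups. Against vehicle it was 5.84 without vehicle replicate 1 and 7.70 without vehicle replicate 2, and against 2 h it was 4.82 without 2 h replicate 1 and 6.95 without 2 h replicate 2.

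Gm5424 matches Ass1, the coding gene of argininosuccinate synthase, at 99.5% of 1239 aligned bases, with 6 differing positions and an identical run of up to 398 bases. Ass1, not a member, had 0 and 7 counts in vehicle, 8 and 20 at 2 h, and 412 and 407 at 12 h, and its log2 fold change at 12 h was 6.45 (adjusted p = 0.000696). Whether the reads counted for Gm5424 came from it or from Ass1 was not tested, and the level of this member is uncertain for that reason. The stretches of this pair and of the next show how few bases tell a copy from its match, with the differing bases in capitals. The stretch of Gm5424, chr10:61534210-61534299 (NCBIM37, plus strand), differs from transcript bases 542 to 631 of Ass1 at 2 of 90 bases. Both come from the GENCODE annotation and the genome of that build.
Gm5424: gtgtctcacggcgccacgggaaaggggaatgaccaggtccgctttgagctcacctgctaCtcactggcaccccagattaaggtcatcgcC
Ass1: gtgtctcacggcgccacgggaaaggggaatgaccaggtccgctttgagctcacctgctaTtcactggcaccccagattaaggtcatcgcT

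Gm16379 (gene ID 100040259, chr9:14649688-14650215, minus strand) matches Mif, which encodes a cytokine, at 98.1% with 10 differing positions. It was at 2.94 and 4.33 CPM in vehicle, 4.25 and 3.33 at 2 h, and 8.66 and 9.08 at 12 h. It met the 5 CPM level at 12 h alone, so the higher 12 h level was built into the choice. By edgeR's test its log2 fold change was 1.29 (adjusted p = 0.00726) against vehicle and 1.23 (adjusted p = 0.0113) against 2 h. The first had an adjusted p of 0.0543 without 12 h replicate 2, and the second 0.0707 and 0.0761 without 12 h replicates 1 and 2. Mif had a log2 fold change of 0.62 at 2 h and 0.93 at 12 h. Chosen to show the same point, the stretch of Gm16379, chr9:14649900-14649989 (NCBIM37, minus strand), differs from transcript bases 250 to 339 of Mif at 3 of 90 bases, in capitals.
Gm16379: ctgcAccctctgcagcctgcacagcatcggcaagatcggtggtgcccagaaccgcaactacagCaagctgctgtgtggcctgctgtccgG
Mif: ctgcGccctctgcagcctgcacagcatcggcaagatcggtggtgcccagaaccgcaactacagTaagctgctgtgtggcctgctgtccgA

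Another 3 called pseudogenes also had coding matches, and 2700099C18Rik had no position by which to compare it. Gm5434 was at 2.06 and 2.23 CPM in vehicle, 3.44 and 4.59 at 2 h, and 5.49 and 7.03 at 12 h, each group above the one before, with a log2 fold change of 1.54 (adjusted p = 0.00404) at 12 h. It too met the 5 CPM level at 12 h alone. Its match Ube2f, a NEDD8 conjugating enzyme, had 93.1% identity and log2 fold changes of 1.41 and 1.49. Gm6682, picked out after its values were seen, had a log2 fold change of 1.18 at 12 h (adjusted p = 0.00407), and its match Tuba1c, an alpha tubulin, at 98.7% identity, had 1.13. Gm13315, picked out in the same way, had -1.05 (adjusted p = 0.0219), and its match Ldha, lactate dehydrogenase A, at 91.7% identity, had -0.94. Gm5434 and Gm13315 differ from their matches at 85 and 83 positions, far more than Gm5424 and Gm16379 do. In each of these pairs, all with a called member, the member and its coding match moved in the same direction at 12 h. Pairs with a member that was not called are not given, and how much of 1 signal belongs to the other was not tested.

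**Figure D3:**
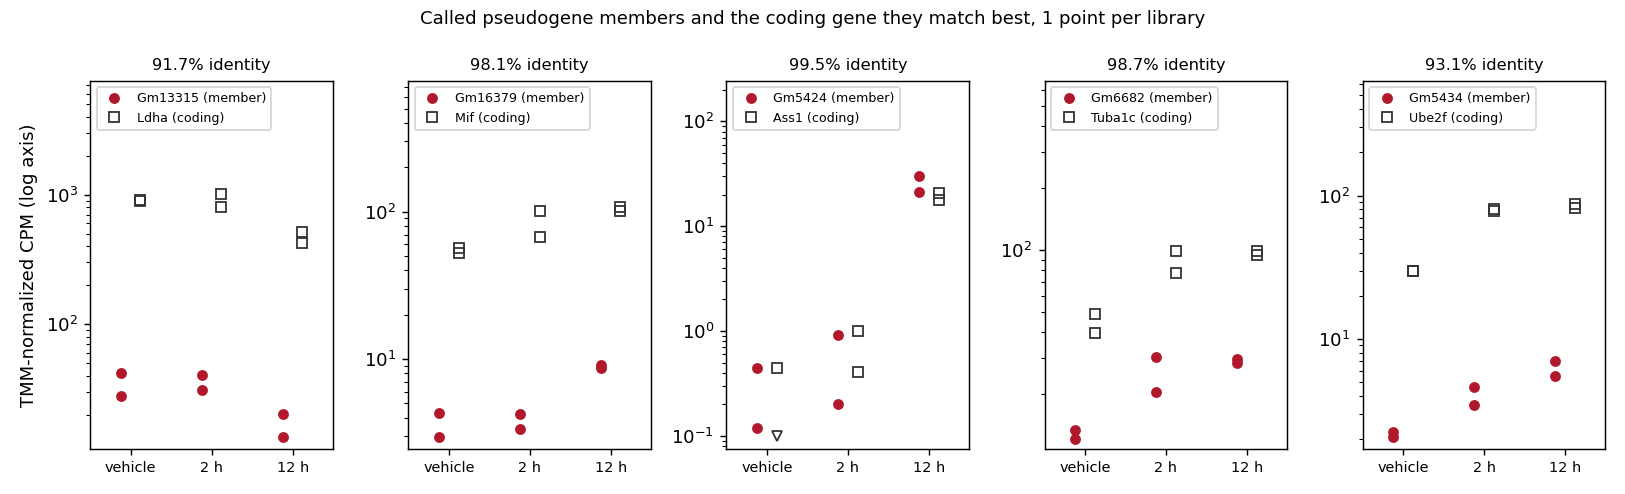
TMM-normalized CPM (log axis) of the 5 called pseudogene members with a coding match (filled circles) and of the coding gene each matches best (open squares), 1 point per library, in vehicle, 2 h and 12 h of TGFβ1; the open triangle marks 0 counts of Ass1 in vehicle replicate 1, and the identity stands above each panel. Gm5424 and Ass1 are both near 0 in vehicle and between 17.9 and 30.4 CPM at 12 h, while the other 4 coding genes lie above their copies in every library.

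Position was known for 210 members in the mm9 annotation. Of these 115 overlapped no other gene, 76 overlapped a gene on the opposite strand and 19 a gene on the same strand alone. Counting was strand-specific, so a member can be read apart from a partner on the opposite strand, while counts of the 19 may be shared. Any of the 76 that also overlap a gene on the same strand were not set apart, and their counts may be shared too. A coding gene started within 1 kb in the opposite direction for 46 members, 18 of them lncRNAs. Among these, D930048N14Rik starts 112 bases from N4bp3, 9230114K14Rik 162 bases from Dhx15, D030028A08Rik 226 bases from Cdk5rap3 and 4933431E20Rik 392 bases from Gstm5.

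Neighbours were described for the called members. A counted gene started within 50 kb of 177 members. Of the 18 members higher at 12 h, 12 had such a neighbour, 5 of these neighbours were tested, and 1 was called in the same direction (8.03% of all genes tested were), Ctla2b beside 4930486L24Rik. Of the 19 lower at 12 h, 12 had one, 9 were tested, and 1 was called in the same direction (11.6% of all genes tested were), Cdc45 beside 2510002D24Rik. In neither set was a tested neighbour called in the opposite direction, and these counts are too small to be read against those shares.

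Promoters were taken from RefSeq (GRCm38.p6), where 175 of the 232 members matched with 195 promoters. The AP-1 motif TGANTCA was searched on both strands of the whole reference promoter sequence, and so was CAGAC, the SMAD box. Only the promoters printed below were then trimmed, to 250 bases before and 30 after the start. TGANTCA was in 13 of the 195 member promoters (6.67%) and in 2565 of all 32851 promoters (7.81%). CAGAC was in 90 (46.2%) and in 49.6% of all. Of the promoters of members called higher at 12 h, 3 of 13 held TGANTCA, and of those called lower, 2 of 15. CAGAC was in 6 of the 13 and in 9 of the 15. For members called higher and lower at 2 h, TGANTCA was in 2 of 10 and 0 of 2. CAGAC was in 6 of 10 and 2 of 2 of these. Such a match is a description and no evidence that a factor binds there.

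The promoters with TGANTCA of all members called at 12 h, 3 of them called higher and 2 lower, are shown with the motif in capitals, so that its place can be seen in both directions of change. That of 2310007B03Rik is chr1:93160919-93161198 (minus strand), with the motif starting 180 bases before the start. That of 4931406H21Rik is chr14:25586554-25586833 (plus strand), with the motif 92 bases before. That of Gm14005 is chr2:128429322-128429601 (minus strand), with the first base of the motif 1 base before the start. Of the members called lower, the promoter of 5033406O09Rik is chr12:111944453-111944732 (minus strand), with the motif 222 bases before the start, and that of D930048N14Rik is chr11:51650704-51650983 (plus strand), with the motif 112 bases before.
2310007B03Rik: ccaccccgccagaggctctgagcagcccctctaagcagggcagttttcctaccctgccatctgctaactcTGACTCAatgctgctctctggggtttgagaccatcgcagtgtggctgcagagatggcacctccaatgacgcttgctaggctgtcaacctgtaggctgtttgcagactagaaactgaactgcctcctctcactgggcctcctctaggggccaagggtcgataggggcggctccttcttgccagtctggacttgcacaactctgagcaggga
4931406H21Rik: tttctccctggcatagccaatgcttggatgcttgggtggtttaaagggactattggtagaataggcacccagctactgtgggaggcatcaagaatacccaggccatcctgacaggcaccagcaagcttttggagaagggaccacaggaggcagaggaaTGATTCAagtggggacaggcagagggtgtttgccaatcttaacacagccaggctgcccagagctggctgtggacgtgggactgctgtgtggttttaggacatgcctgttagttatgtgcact
Gm14005: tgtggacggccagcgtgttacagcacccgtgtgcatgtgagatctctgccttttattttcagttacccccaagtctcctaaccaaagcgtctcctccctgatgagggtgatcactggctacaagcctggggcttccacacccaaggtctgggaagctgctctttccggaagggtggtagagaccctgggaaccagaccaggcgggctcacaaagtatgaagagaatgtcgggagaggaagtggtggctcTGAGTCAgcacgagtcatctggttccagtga
5033406O09Rik: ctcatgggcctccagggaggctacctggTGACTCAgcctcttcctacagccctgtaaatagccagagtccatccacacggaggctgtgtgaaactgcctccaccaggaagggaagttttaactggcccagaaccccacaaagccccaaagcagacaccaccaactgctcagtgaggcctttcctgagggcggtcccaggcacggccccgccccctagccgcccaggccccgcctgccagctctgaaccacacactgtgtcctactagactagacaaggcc
D930048N14Rik: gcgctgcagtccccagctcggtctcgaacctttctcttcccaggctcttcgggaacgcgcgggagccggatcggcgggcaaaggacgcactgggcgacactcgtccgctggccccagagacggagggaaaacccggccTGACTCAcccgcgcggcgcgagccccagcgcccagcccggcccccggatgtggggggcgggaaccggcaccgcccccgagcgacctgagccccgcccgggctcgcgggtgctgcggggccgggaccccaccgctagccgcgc

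By mean level over all 6 libraries, in which an increase after treatment itself raises the rank, the first 8 were 2310007B03Rik, 2610507B11Rik, C130074G19Rik, 1700017B05Rik, D630003M21Rik, B230219D22Rik, 5031439G07Rik and 2010111I01Rik, all coding. In vehicle, 2310007B03Rik had a mean of 54.7 CPM and D630003M21Rik 32.1, against 218.0 for B230219D22Rik. On the scale of CPM per kb of exon the order differed, from 235.4 for 2310007B03Rik and 105.7 for C130074G19Rik to 27.8 for 2010111I01Rik and 21.7 for 5031439G07Rik. The 3 that were not called in any comparison follow.

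2610507B11Rik (chr11:78075254-78104125, plus strand) was at 380.3 and 414.2 CPM in vehicle, 475.9 and 464.8 at 2 h, and 579.2 and 627.5 at 12 h, each group above the one before. Its log2 fold change at 12 h was 0.60 (adjusted p = 0.00396), past the p threshold and under the fold threshold. 5031439G07Rik (chr15:84774366-84818981, minus strand) was at 180.6 and 178.3, 197.3 and 205.9, and 237.1 and 251.0 CPM, in the same order, with 0.44 (adjusted p = 0.00934). B230219D22Rik (chr13:55794485-55804860, plus strand) was at 227.8 and 208.3, 241.4 and 178.1, and 231.4 and 176.7 CPM, with all 3 groups overlapping and a log2 fold change of -0.095 (adjusted p = 0.713) at 12 h.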

How the data were processed

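Stranded total RNA of 6 libraries was sequenced. The deposited counts are integer read counts per gene: the authors filtered the FASTQ reads, aligned them to mm9 with subjunc keeping unique alignments, removed duplicates and counted reads on exons by strand with featureCounts. From these counts, R 4.3.3 with edgeR 4.0.16 gave TMM factors and a quasi-likelihood fit of the 3 groups without further terms, on genes that reached 2 CPM in 2 or more libraries. SE is the absolute log2 fold change divided by the square root of F. Members are the Rik and Gm genes that reached 5 CPM in 2 or more libraries, and members and lists were chosen with earlier results of these data known. Named members are, with non-overlapping libraries, the 10 called with the largest change per direction at each time against vehicle and the 5 per direction for 12 h against 2 h, then the 8 with the highest level, the 3 just inside and 3 just outside 5 CPM, and any member called in opposite directions. Annotation was matched with Python 3.11.15 and pysam 0.24.0, and copies with BLAST 2.17.0. Alternatives were limma-voom (3.58.1), DESeq2 1.42.0 and its size factors, total counts, other filters and member levels, no fold threshold, only the 2 groups compared, a replicate block, and leaving out each library.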

Additional observations from a re-analysis of the deposited data

Results flagged for a closer look

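Of the 22 members called at 12 h against 2 h, 11 are given here: the 5 with the largest change in each direction and the member called in opposite directions. The effects at both times share the vehicle libraries, so the log2 fold change of 12 h against 2 h is the difference of the effects. It also holds any effect of the longer time without serum and insulin, since vehicle was collected at 2 h alone. That difference was 5.52 for Gm5424, 2.26 for 6030419C18Rik, 1.51 for A930015D03Rik, 1.27 for D030028A08Rik and 1.23 for Gm16379, all higher at 12 h. It was -1.17 for 2010111I01Rik, -2.77 for A230057D06Rik, -2.84 for C330027C09Rik, -4.23 for A330076H08Rik and -4.26 for 2700099C18Rik, all lower at 12 h. For 8430408G22Rik, with 0 counts at 12 h, the level was at least 6.74-fold lower than at 2 h. Gm5424, 6030419C18Rik, A930015D03Rik and Gm16379 met the 5 CPM level through the 12 h libraries alone, and 8430408G22Rik and A230057D06Rik through vehicle alone, so for these 6 a difference between groups was built into the choice. 2700099C18Rik met it through replicate 2 of vehicle and of 2 h alone. A330076H08Rik met it through both vehicle libraries and 2 h replicate 1 alone. A lower 12 h level was thus built into the choice of both as well.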

How the results depend on the processing

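Of 54 calls of named members, 43 were run under 14 alternatives, and 28 of these passed both thresholds each time. The other 11 were run under 13, since a filter of 10 counts in every library removes their genes, and 10 of these passed each time; of 745 values 709 passed, 36 did not and 0 reversed. Of 710 values of named members that were not called, 24 had another sign. At 2 h 13 members were called, 8 among members above 5 CPM in all 6 libraries and 31 without a fold threshold, and 9 to 23 when 1 library was left out. At 12 h the counts were 37, then 18, 89 and 35 to 40, and at 12 h against 2 h they were 22, then 8, 63 and 16 to 29. The counts without a fold threshold are larger by construction. They were not made over all genes, so they are no result about the members. The set above 5 CPM in all libraries leaves out 52 members, among them the 16 that passed through 1 group alone. For the ranges with 1 library left out the cause was not tested. The member median at 2 h (-0.14) was -0.25 with total counts, -0.11 among members above 5 CPM in all libraries and -0.16 to -0.12 with 1 library left out. At 12 h (-0.056) it was -0.18, -0.021 and -0.11 to -0.054, with -0.10 for a member level of 2 CPM and -0.071 for only the 2 groups compared. At 12 h against 2 h (0.045) it was 0.025, 0.061 and 0.027 to 0.053, with 0.0056 for a member level of 2 CPM. For the medians the cause was not tested. With 1 library left out, the lone library of a group is assumed to vary like the others, and the calls at 2 h ranged from 9 without vehicle replicate 1 to 23 without 2 h replicate 1.

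With a replicate block, 14, 38 and 22 members were called at 2 h, at 12 h and at 12 h against 2 h, with 13, 37 and 22 shared, gaining 9030025P20Rik at 2 h and Gm3219 at 12 h (the latter named after its values were seen). Over all genes tested, 813, 2247 and 1685 were called with the block, beside 692, 2176 and 1593 without it. What the replicate numbers share is not stated by the labels. Across genes, which are not independent replicates, deviations of same-numbered libraries from their group means had r of 0.708 (vehicle with 2 h), 0.263 (vehicle with 12 h) and 0.392 (2 h with 12 h).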
